A study of Homo sapiens with 6 samples.

Results

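The genes described here encode the histones of the large gene clusters, together with a few linker histone genes that carry the same style of name. They were chosen by name alone: a probe set, the group of short probes on the array that stands for 1 transcript, was taken where its annotation gives exactly 1 symbol of the cluster histone pattern (H1 with a number, H2AC, H2BC, H3C or H4C with a number, or the older HIST names), and where a gene had several probe sets the brightest on average was kept. This gave 45 genes with 53 probe sets, out of 19775 genes and 54675 probe sets. They are 9 H1, 8 H2A, 13 H2B, 7 H3 and 8 H4 genes. RefSeq places 40 of them on chromosome 6 between positions 25726777 and 27893891 (GRCh38.p14), 2 on chromosome 1, 2 on chromosome 3 and 1 on chromosome 12. The name pattern also admits H1-10 and H1-8 on chromosome 3, H1-7 on chromosome 12 and H1-6, a testis histone inside the chromosome 6 cluster, so not every member is a replication-dependent cluster gene.

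Histones are the proteins around which DNA is wound: H2A, H2B, H3 and H4 form the core particle, and H1 binds the linker between particles. Most cluster histone genes are transcribed in S phase through NPAT, and their mRNA ends in a stem-loop bound by SLBP in place of a poly(A) tail. Some cluster genes, among them H2BC4, H2BC5, H2BC12, H2BC21, H2AC6 and H1-2 (older names HIST1H2BC, HIST1H2BD, HIST1H2BK, HIST2H2BE, HIST1H2AC and HIST1H1C), are also known to give polyadenylated mRNA, often in cells that have stopped dividing or have differentiated. The labels name a labelling kit that primes RNA from its poly(A) tail, so stem-loop mRNA is expected to be caught poorly, but no value here measures the end of a transcript.

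RNA of MCF-10A, an immortalized breast epithelial line that is not transformed, was hybridized to Affymetrix U133 Plus 2.0 arrays after growth in mammary epithelial medium. Of the 6 arrays, 3 hold control cells and 3 hold cells infected with a lentivirus that carries MBD2, a protein that binds methylated DNA. The virus was packaged in HEK293 cells. For the controls the study's methods give an empty virus and the labels no infection, and for the replicates the methods say biological and the labels technical. The labels also give the treatment as MBD2 transfection, where the methods describe infection with the virus. These sources thus disagree on whether the arrays came from separate cultures, and neither describes such cultures. The p-values therefore measure the spread between these 6 arrays and no more. The brightest MBD2 probe set read 8.92, 9.03 and 9.68 on the log2 scale on control arrays 1, 2 and 3. It read 12.17, 11.72 and 12.50 on MBD2 arrays 1, 2 and 3, a difference of means of 2.92. Over the alternative ways of processing described below, the difference for MBD2 ran from 0.11 to 3.16, so its size depended on the setting.

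Before any comparison between groups, 2 arrays stood apart from the others of their group. Control arrays 1 and 2 were nearly identical, with 5 of all genes more than 2-fold apart, and MBD2 arrays 2 and 3 had 95 such genes. None of the 45 histone genes differed by 2-fold in either pair, and the largest differences were 0.43 and 0.65 log2 units. Control array 3 and MBD2 array 1 lay away from these pairs. The hybridization controls, bacterial and phage transcripts added to each sample, read 9.94 and 10.01 on MBD2 arrays 2 and 3 and 10.96 to 11.33 on the other 4. Epithelial markers were present (median log2 level 11.53 to 13.11 over 9 measured genes), while EPCAM, an epithelial adhesion molecule, was called lower in MBD2 cells. Of the 9, 7 had a lower mean in MBD2 cells and 2 a higher one (median log2 difference -0.56). At an unadjusted p under 0.05 from limma, 5 were lower, EPCAM among them, and 0 higher (9.59% and 8.69% of all genes). Of the markers of other cells, the 9 fibroblast genes had a median of 8.90 on MBD2 array 1 and 6.27 to 6.86 elsewhere, with 0 called. Only 4 of the 9 (COL3A1, DCN, LUM and FAP) were at least 2-fold above MBD2 arrays 2 and 3 there, and 0 were 2-fold below. On the control arrays DCN read 8.43 to 9.74 and FAP 7.50 to 10.66. The 5 leukocyte genes had medians of 5.15 to 5.44, with CD14 called lower and PTPRC, which defines leukocytes, at 3.50 to 4.03. The 5 endothelial genes (medians 5.10 to 5.48) and the 8 HEK293 genes (medians 4.12 to 4.30) had 0 called. Among these 8, GATA3 read higher than the rest, at 8.53 to 9.83 over all arrays. Of 16 housekeeping genes measured, 0 were called, with a median log2 difference of 0.09.

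Promoter windows are printed for H2BC4, which had the largest difference between the groups, for H2AC6, its neighbour on the opposite strand, and for H2BC12, H2BC21 and H1-2, which had large steps on single arrays. Promoter letters are a feature that the choice by name did not use. Each window holds 250 bases before and 50 after the start of the gene in RefSeq (GRCh38.p14), 5′ to 3′ on the strand of the gene. Capitals mark the letters searched for on both strands, so that a match can also appear as its reverse complement. They are the octamer ATTTGCAT, the CCAAT letters, the TATAAA letters and the E2F-like TTTCGCGC motif, and matches that adjoin or overlap run together. The windows lie at chr6:26123877-26124176 (minus strand) for H2BC4, chr6:26123922-26124221 (plus) for H2AC6, chr6:27146809-27147108 (minus) for H2BC12, chr1:149886633-149886932 (minus) for H2BC21 and chr6:26056421-26056720 (minus) for H1-2.
H2BC4: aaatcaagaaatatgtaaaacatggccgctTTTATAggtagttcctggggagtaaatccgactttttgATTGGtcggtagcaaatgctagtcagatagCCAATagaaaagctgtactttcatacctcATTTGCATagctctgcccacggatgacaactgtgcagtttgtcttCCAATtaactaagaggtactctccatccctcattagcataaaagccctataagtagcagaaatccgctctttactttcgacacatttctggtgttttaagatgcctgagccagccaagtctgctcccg
H2AC6: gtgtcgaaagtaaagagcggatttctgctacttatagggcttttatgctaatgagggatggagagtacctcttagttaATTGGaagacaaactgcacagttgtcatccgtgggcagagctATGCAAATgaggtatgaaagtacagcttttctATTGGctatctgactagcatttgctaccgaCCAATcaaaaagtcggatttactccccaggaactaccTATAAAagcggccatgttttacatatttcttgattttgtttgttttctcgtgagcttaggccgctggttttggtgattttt
H2BC12: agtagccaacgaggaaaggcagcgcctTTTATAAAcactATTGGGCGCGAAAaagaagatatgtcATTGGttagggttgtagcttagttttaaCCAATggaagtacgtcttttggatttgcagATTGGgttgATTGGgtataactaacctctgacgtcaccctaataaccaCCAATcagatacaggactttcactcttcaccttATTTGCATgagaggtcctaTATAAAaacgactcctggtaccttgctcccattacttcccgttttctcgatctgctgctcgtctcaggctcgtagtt
H2BC21: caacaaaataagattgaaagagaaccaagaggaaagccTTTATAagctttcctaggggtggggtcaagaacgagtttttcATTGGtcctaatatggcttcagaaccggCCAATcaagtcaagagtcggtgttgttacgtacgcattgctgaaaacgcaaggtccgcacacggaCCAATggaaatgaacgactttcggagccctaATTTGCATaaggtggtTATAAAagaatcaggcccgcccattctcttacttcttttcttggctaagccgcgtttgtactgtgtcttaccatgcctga
H1-2: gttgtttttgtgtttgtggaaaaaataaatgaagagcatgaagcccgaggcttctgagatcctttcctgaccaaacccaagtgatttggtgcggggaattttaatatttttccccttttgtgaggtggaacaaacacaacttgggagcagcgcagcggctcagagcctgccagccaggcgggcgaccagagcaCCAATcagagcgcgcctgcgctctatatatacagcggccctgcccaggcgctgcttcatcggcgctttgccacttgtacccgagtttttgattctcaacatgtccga

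H2BC4 and H2AC6 are a divergent pair: their start sites, on the minus strand for H2BC4 and on the plus strand for H2AC6, lie 246 bases apart, and 255 bases of their windows are the same DNA read on opposite strands. One octamer, one TATAAA match and 3 CCAAT matches are thus counted for both genes. The values of the 2 genes nevertheless followed different arrays, as described below for H2BC4 and H2AC6. Over the 43 members with a window, the octamer, the letters read by the POU2F factors, stood in 16 (37.2%, against 1.80% of all 27305 windows), namely in 6 of 8 H2A and 10 of 13 H2B windows and in none of the 9 H1, 6 H3 and 7 H4 windows. CCAAT stood in 37 (86.0%, against 35.7%) and in 2 of the 7 H4 windows, TATAAA in 28 (65.1%, against 11.95%) and TTTCGCGC in 9 (20.9%, against 0.546%). Overlap of windows was measured only for H2BC4 and H2AC6. H2AC14 and H2BC14, H2AC15 and H2BC15, and H2AC17 and H2BC17 are also close neighbours with the same match counts. Windows that share DNA count once for each gene, so these shares are not all of separate stretches of DNA. A match of letters is a description of the window and not a measured binding site.

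No histone gene was called between the groups. A call needed an adjusted p under 0.05 from limma together with a change of 1.5-fold or more. By that rule 0 of 45 were called higher and 0 lower, against 1.25% and 1.5% of all genes. At an unadjusted p under 0.05 there were 2 higher (H2BC4 and H4C4) and 0 lower, against 8.69% and 9.59% of all genes. All 3 MBD2 arrays lay above all 3 control arrays in 2 members (10.4% of all genes) and below them in 5 (14.6%). The median log2 difference, MBD2 minus control, was 0.06 for the members and -0.02 for all genes, with the MBD2 mean higher in 29 members and lower in 16. By family the medians were 0.02 for H1, -0.04 for H2A, 0.07 for H2B, 0.06 for H3 and 0.05 for H4. In bulk RNA, fewer cells that make a transcript and less of it per cell cannot be told apart.

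**Figure D1:**
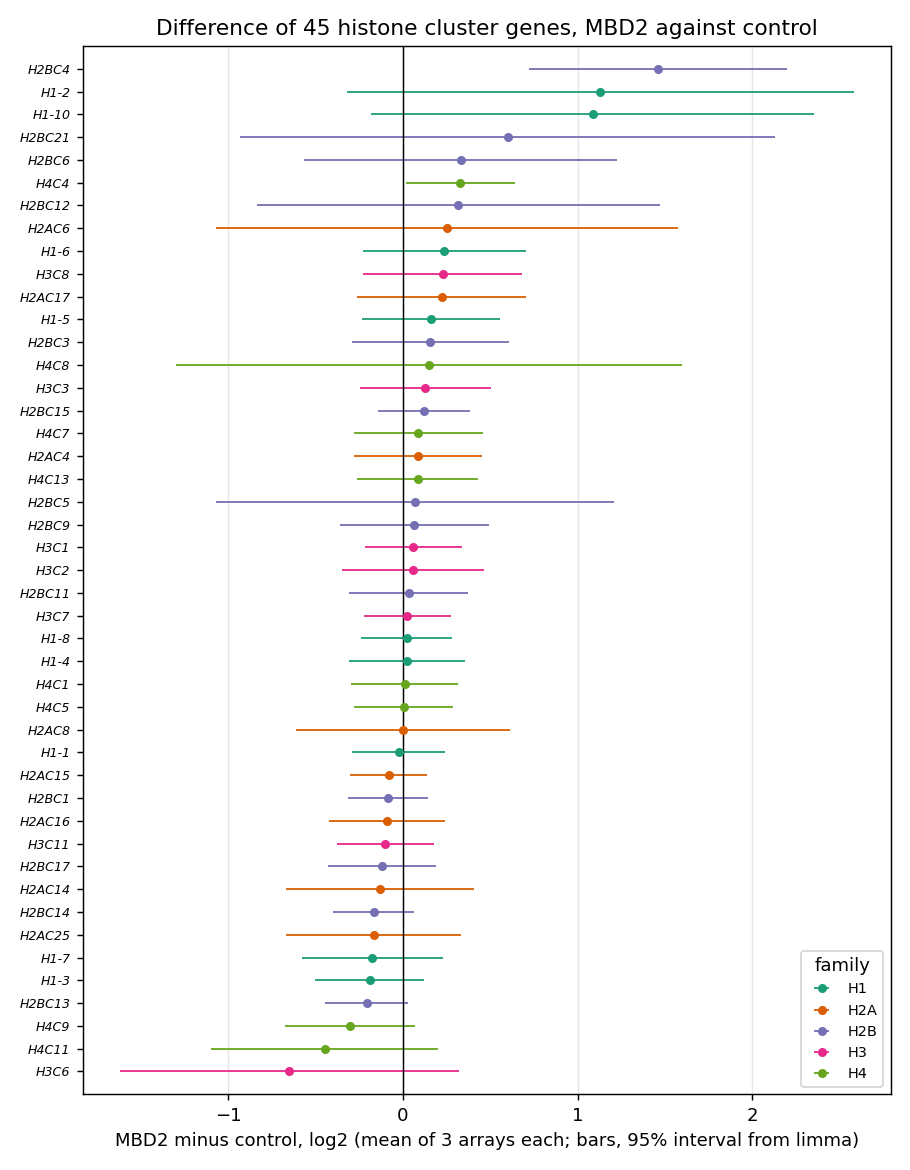
MBD2 minus control for each of the 45 histone genes, in log2 units, sorted by size and coloured by family. Points are differences of the means of 3 arrays each and bars the 95% intervals from limma. H2BC4 (1.46) and H4C4 (0.33) are the only members whose interval does not reach 0, and the intervals of H2BC21, H1-2 and H4C8 are the widest.

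The members differed in signal. Of the 45, 19 had a mean log2 value of at least 5 (69.4% of all genes did), and 26 lay under 5. The 3 TrpnX probe sets, whose transcript was in no sample and so show background, read 2.93 to 3.67. Of the members, 11 stayed within 0.5 log2 units of that or below it on every array (a limit of 4.17) and 20 on at least 1 array, so background bounds the change they can show. The 26 dim members differed between groups by -0.21 to 0.33, and none spanned more than 0.90 log2 units over the 6 arrays. Their median span was 0.38, against 0.36 for all genes under 5, while that of the 19 brighter members was 1.30, against 0.90 for all genes at 5 or above. In all, 11 members (24.4%) spanned more than 1 log2 unit, against 32.3% of all genes, and every one of the 11 had a mean of at least 5. RefSeq lists a gene span of over 1000 bases for 8 members, of which 7 had a mean of at least 5 and 6 spanned more than 1 log2 unit. The other 37 members are short, with a median span of 487 bases, and 5 of them moved that much. Long and short members also differed in signal. Only 1 of the 26 dim members had a span over 1000 bases, and no dim member moved that much.

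Among the H2B genes, H2BC4 had the largest difference of all members. RefSeq gives it a span of 10757 bases (chromosome 6, 26113170 to 26123926), far longer than a typical cluster histone gene. Its log2 value was 4.69, 4.44 and 4.84 on control arrays 1 to 3 and 5.57, 6.07 and 6.72 on MBD2 arrays 1 to 3. Every MBD2 array was above every control array, and MBD2 array 1 was the lowest of its group. Its group means were 4.66 ± 0.20 (SD, n = 3) and 6.12 ± 0.58 (SD, n = 3). The log2 difference of 1.46 (standard error 0.30, 95% interval 0.72 to 2.20, adjusted p = 0.0723 from limma) missed the threshold. It passed in limma without MBD2 array 1 (1.74, adjusted p = 0.00992) and with arrays centred on housekeeping genes (1.43, adjusted p = 0.0353). Over all alternatives its difference lay between 0.91 and 1.83, with an adjusted p of 0.000315 to 0.556. These values rest on 1 probe set. Of the probe sets that name 5 H2B genes with H2BC4 among them, the brightest (mean 6.22) differed by 0.14, with control array 3 the highest. The others differed by -0.08 and 0.78. In none of them were all MBD2 arrays above all control arrays.

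H2BC12, an H2B gene with a RefSeq span of 8566 bases, was highest on a control array. It read 9.69, 9.49 and 11.24 on the control arrays and 10.31, 10.37 and 10.69 on the MBD2 arrays, so the MBD2 arrays lay between control array 3 and the other controls. Its group difference was 0.32 (95% interval -0.84 to 1.47, adjusted p = 0.774 from limma). In H2BC5 control array 3 was also the highest of the controls, at 7.56, 7.67 and 9.25, with 8.40, 8.03 and 8.26 on the MBD2 arrays. Its difference was 0.07 (interval -1.07 to 1.21), and the gene has the longest RefSeq span of all members, 13229 bases. A second probe set of H2BC5 also read highest on control array 3, 0.98 above the mean of control arrays 1 and 2, against 1.64 for the kept one. Both have the name ending for shared sequence. H2BC6, a short gene, read 5.41, 5.58 and 6.72 on the control arrays and 5.95, 6.32 and 6.42 on the MBD2 arrays, and here too control array 3 was above every other array (difference 0.33, interval -0.57 to 1.23).

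H2BC21, the H2B gene of the chromosome 1 cluster, was instead highest on an MBD2 array. It read 7.72, 7.81 and 8.24 on the control arrays and 9.96, 7.50 and 8.12 on the MBD2 arrays: MBD2 array 1 was far above, and MBD2 arrays 2 and 3 lay within or below the control range. The difference of means was 0.60 (interval -0.93 to 2.13, adjusted p = 0.664 from limma), and without MBD2 array 1 it was -0.12. The other 8 H2B genes (H2BC1, H2BC3, H2BC9, H2BC11, H2BC13, H2BC14, H2BC15 and H2BC17) differed by -0.21 to 0.16, with H2BC17 at -0.12. H2BC1, H2BC13 and H2BC14 were among the 5 members with every MBD2 array below every control array, at differences of -0.09, -0.21 and -0.17 and with all 6 arrays under the background limit.

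H2AC6, which shares its promoter region with H2BC4, did not share its array pattern. Its 1 probe set has the name ending for shared sequence, so other histone transcripts may add to the values. H2AC6 read 9.56, 9.69 and 10.53 on the control arrays and 11.31, 9.41 and 9.82 on the MBD2 arrays. MBD2 array 1 was the highest and control array 3 the next, whereas for H2BC4 MBD2 array 1 was the lowest of its group. The difference between groups was 0.25 (interval -1.07 to 1.58, adjusted p = 0.849 from limma), and -0.31 without MBD2 array 1. H2AC25, of a small cluster on chromosome 1, read 7.62, 7.25 and 7.97 and then 7.41, 7.61 and 7.31 (difference -0.17, interval -0.67 to 0.33). H2AC14 read 6.95, 6.70 and 7.47 on the control arrays and 6.73, 6.94 and 7.06 on the MBD2 arrays (difference -0.13, interval -0.67 to 0.41). For both the groups overlapped and control array 3 was the highest of the 6. The other 5 H2A genes had means under 5 and differed by -0.09 to 0.22, from H2AC16 to H2AC17. H2AC15 had all MBD2 arrays below all control arrays by 0.08 on average.

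Of the linker histones, H1-2 and H1-10 had large differences with wide intervals. H1-2, the somatic linker histone known for a polyadenylated form, read 5.81, 5.63 and 7.83 on the control arrays and 7.61, 7.31 and 7.75 on the MBD2 arrays. Control array 3 was above all MBD2 arrays and the other controls below all of them. Its control and MBD2 means were 6.42 ± 1.22 (SD, n = 3) and 7.55 ± 0.23 (SD, n = 3), and the difference was 1.13 (standard error 0.59, interval -0.32 to 2.58, adjusted p = 0.376 from limma). Without control array 3 the difference was 1.83 with an adjusted p of 0.0193, past the threshold (0.74 to 1.83 over all alternatives, adjusted p 0.000114 to 0.886).

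H1-10, a replication-independent linker histone encoded outside the clusters, read 6.01, 5.57 and 7.31 on the control arrays and 6.74, 7.89 and 7.52 on the MBD2 arrays. The groups overlapped, since MBD2 array 1 was below control array 3, and the difference was 1.09 (standard error 0.52, interval -0.18 to 2.35, adjusted p = 0.333 from limma). The other 7 H1 genes differed little. The testis gene H1-6 (0.24) and the S phase gene H1-5 (0.16) had the larger increases among them, and H1-7 (-0.17) and H1-3 (-0.19) the decreases. H1-3 had all MBD2 arrays (4.63 to 4.95) below all control arrays (4.99 to 5.11). H1-1, H1-4 and H1-8, the oocyte linker histone, lay between -0.02 and 0.02.

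H3C6 had the largest decrease of the members. Its log2 value was 7.78, 8.001 and 7.75 on the control arrays and 8.05, 6.45 and 7.08 on the MBD2 arrays, so MBD2 arrays 2 and 3 were below every control array and MBD2 array 1 above every one. The difference was -0.65 (standard error 0.40, interval -1.62 to 0.32, adjusted p = 0.445 from limma). Without MBD2 array 1 it was -1.08 with an adjusted p of 0.0285, past the threshold, but a second probe set of H3C6, at 4.81 to 5.13, differed by -0.12 and did not show the step of MBD2 array 1 (0.04, against 1.28). H3C8 read 5.87, 5.73 and 6.29 and then 6.06, 6.10 and 6.40 (difference 0.23, interval -0.23 to 0.68), with overlapping groups. The other 5 H3 genes had means under 5 and differed by -0.10 (H3C11) to 0.13 (H3C3).

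Among the H4 genes, H4C8 was high on both arrays that stood apart. It read 6.85, 6.75 and 7.95 on the control arrays and 8.51, 6.55 and 6.94 on the MBD2 arrays, with a difference of 0.15 (interval -1.30 to 1.60, adjusted p = 0.923 from limma). A second H4C8 probe set had the same 2 arrays highest, at 4.70, 5.13 and 6.12 and then 6.36, 4.99 and 5.47. H4C11 read 7.23, 7.21 and 8.01 on the control arrays and 6.76, 7.29 and 7.06 on the MBD2 arrays: control array 3 was the highest and MBD2 array 1 the lowest. Its difference was -0.45 (interval -1.10 to 0.20, adjusted p = 0.433 from limma). H4C9 read 6.03, 6.36 and 6.05 and then 5.78, 6.06 and 5.69 (difference -0.30, interval -0.68 to 0.07), and MBD2 array 2 overlapped the controls. H4C4 was, beside H2BC4, the other member with every MBD2 array above every control array, at 4.67, 4.74 and 4.95 and then 5.24, 5.11 and 5.00. Its difference was small, 0.33 (interval 0.02 to 0.64, unadjusted p = 0.0406, adjusted p = 0.248 from limma), and its mean in control cells was 4.79, against a background of up to 3.67. The other 4 H4 genes differed by 0.00 to 0.09.

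**Figure D2:**
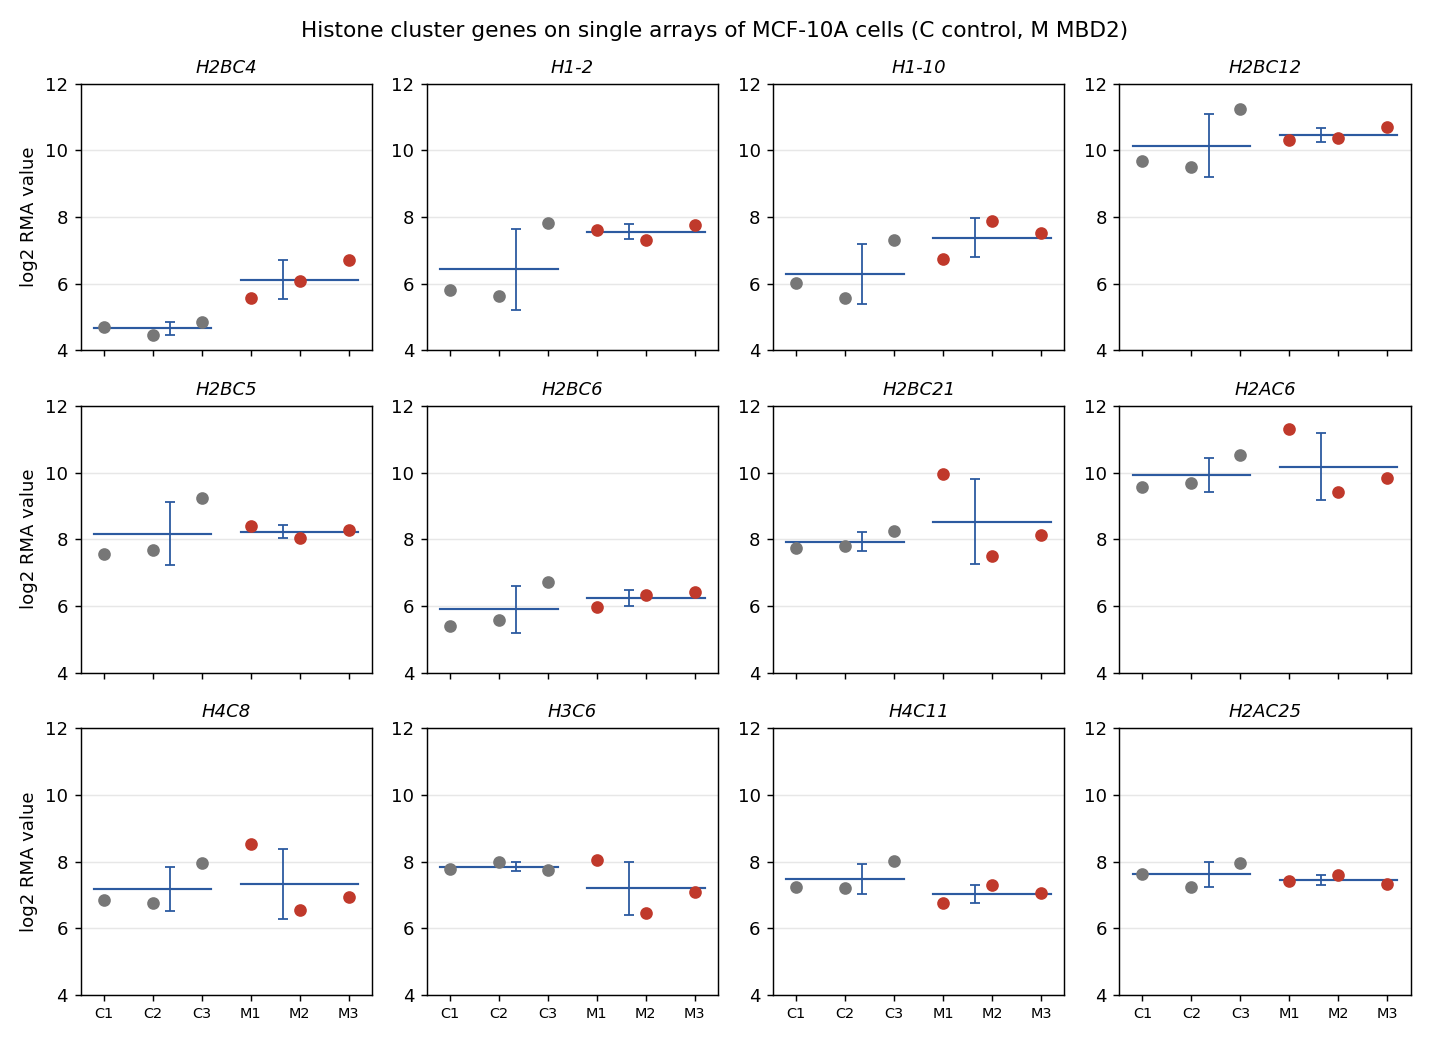
Log2 RMA values on each of the 6 arrays for 12 histone genes (grey, control arrays C1 to C3, and red, MBD2 arrays M1 to M3), where blue lines are group means and blue bars ± 1 SD, n = 3. In H2BC4 every MBD2 array is above every control array, in H1-2, H1-10, H2BC12, H2BC5 and H2BC6 control array 3 rises above the other controls, and in H2BC21, H2AC6, H4C8 and H3C6 MBD2 array 1 rises above the other MBD2 arrays.

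Several histone genes moved more inside a group than between the groups. Taking control array 3 against the mean of control arrays 1 and 2, 6 of 45 members were at least 2-fold higher (13.3%, against 3.36% of all genes) and 0 at least 2-fold lower (4.31% of all genes). These 6 were H1-2 (4.29-fold), H2BC12 (3.13), H2BC5 (3.11), H1-10 (2.87), H2BC6 (2.33) and H4C8 (2.21). In direction, 35 of the 45 were higher on control array 3, with a median step of 0.20 log2 units (0.04 for all genes). Of the 19 brighter members 15 were higher, with a median of 0.54 (0.06 for all genes with a mean of at least 5). One array on a side gives no test, and these values describe that array alone. Leaving out every probe set with a name ending for shared sequence kept 35 members, of which 3 were 2-fold higher (3.28% of all genes in that setting). H2BC5, H1-10 and H2BC6 were among those dropped.

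On MBD2 array 1, set against the mean of MBD2 arrays 2 and 3, a different group of members rose by 2-fold: H2BC21 (4.43-fold), H4C8 (3.42), H2AC6 (3.22) and H3C6 (2.44). They are 4 of 45 (8.89%, against 5.1% of all genes), and 0 members were 2-fold lower (8.46% of all genes). Without the probe sets named for shared sequence, 2 of 35 members were 2-fold higher, against 5.47% of all genes. H2BC21 and H2AC6 were among those dropped. H4C8 alone passed on both arrays. H1-2 (0.08) and H2BC5 (0.25), among the largest steps of control array 3, barely stepped on MBD2 array 1, and H1-10 was 0.96 log2 units lower there. Over all 45 members 14 were higher on MBD2 array 1, with a median step of -0.12 (-0.06 for all genes). The histone genes thus did not move as 1 block on MBD2 array 1. On control array 3 most members (35 of 45) were higher, though only 6 by 2-fold.

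**Figure D3:**
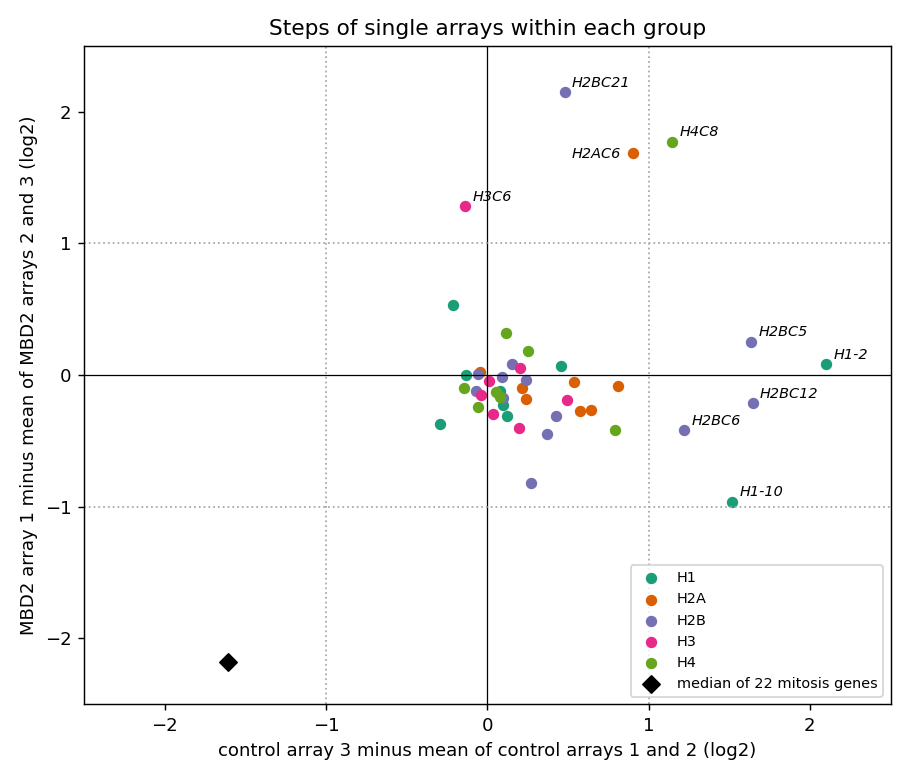
Each point is 1 of the 45 histone genes, coloured by family: on the x axis, control array 3 minus the mean of control arrays 1 and 2; on the y axis, MBD2 array 1 minus the mean of MBD2 arrays 2 and 3, both in log2 units; dotted lines mark 2-fold. Named genes lie past 2-fold on at least 1 array, H4C8 on both, and the black diamond shows the median of 22 mitosis genes, at -1.61 and -2.18.

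Genes of mitosis were low on these 2 arrays. Of 22 mitosis genes, 19 were at least 2-fold lower on control array 3 (median step -1.61) and 22 on MBD2 array 1 (median -2.18). MKI67, the proliferation marker, read 7.72, 7.99 and 5.62 on the control arrays and 5.99, 9.67 and 8.47 on the MBD2 arrays. Of 21 S phase genes, 5 were at least 2-fold lower on control array 3 (median -0.63) and 19 on MBD2 array 1 (median -1.53). PCNA, the replication clamp, read 10.32, 10.33 and 10.22 and then 9.997, 12.04 and 11.91, and CCNE2, a cyclin of the G1 to S transition, was 2.78 log2 units lower on MBD2 array 1. Genes of quiescence and inhibitors of cyclin-dependent kinases had median steps of 0.56 and 0.24. CDKN1A, one of these inhibitors, read 11.35, 11.30 and 11.997 and then 11.52, 11.17 and 11.51. Where the mitosis list was low, 0 histone members were 2-fold lower. On control array 3, 6 were 2-fold higher, and 4 on MBD2 array 1. The 26 members with a mean under 5 spanned at most 0.90 log2 units, so none of them could count in either direction. Probe sets shared by several histone genes stepped both ways on MBD2 array 1. The step was -1.82 for one of 14 H4 genes and -1.51 for one of 6 H2A genes. It was 1.22 for one of 10 H3 genes and 1.11 for one of H2BC11 and H2BC8. The part of the cell cycle or of the fibroblast markers, whose median was highest on MBD2 array 1, in these steps was not tested.

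**Figure D4:**
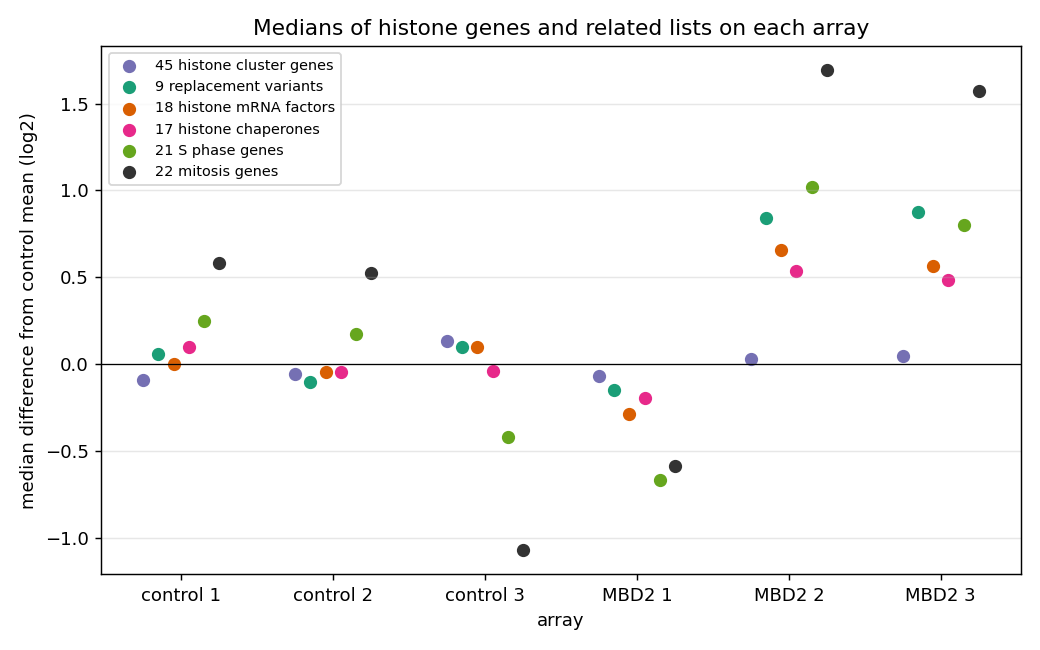
Median, over the genes of each list, of the log2 difference between an array and the mean of the 3 control arrays, for the histone cluster genes and 5 related lists. The mitosis median falls to -1.07 on control array 3 and -0.59 on MBD2 array 1. It reaches 1.69 and 1.58 on MBD2 arrays 2 and 3. The median of the 45 histone genes, of which 26 had a mean under 5, stays between -0.09 and 0.13.

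The factors that make and process histone mRNA had 1 called gene of 18 measured: CPSF2, a subunit of the cleavage machinery, was lower. It read 9.11, 8.93 and 9.11 on the control arrays and 8.34, 8.43 and 8.26 on the MBD2 arrays, with separate groups and a difference of -0.71 (standard error 0.11, adjusted p = 0.0369 from limma). The call was lost in 12 of 16 alternatives, and another probe set, without an ending for shared sequence, gave 0.14. SLBP read 8.18, 8.22 and 8.47 and then 8.41, 9.79 and 9.73, so MBD2 array 1 overlapped the controls. Its difference was 1.02 (interval 0.07 to 1.97, adjusted p = 0.243 from limma), and it passed without MBD2 array 1 (1.47, adjusted p = 0.00436). NPAT, the S phase activator of histone genes, differed by 0.05, its partner CASP8AP2 by 0.43, and LSM11 and ZNF473 of the U7 processing machinery by -0.04 and -0.13. The median difference of the list was 0.29, with 12 genes higher and 6 lower.

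Replacement histone variants, which are made from polyadenylated mRNA outside S phase as well, had 0 of 9 measured genes called (H1-10 counts among them). Their median difference was 0.54, with 8 higher and 1 lower. H2AX, the variant phosphorylated at DNA breaks, read 8.27, 7.98 and 7.50 on the control arrays and 7.29, 9.43 and 9.33 on the MBD2 arrays, so MBD2 array 1 was the lowest of the 6 and the groups overlapped. In H2AZ1 too MBD2 arrays 2 and 3 were above the other 4 (12.48, 12.49 and 12.20, then 12.30, 13.23 and 13.27), and CENPA, the centromeric H3, differed by 0.42. H2AJ, known to accumulate in senescent cells, read 8.81, 8.22 and 9.65 and then 8.75, 9.13 and 9.04, with control array 3 the highest. The histone chaperones, which deliver histones to DNA, had 0 of 17 called and a median of 0.41. CHAF1A, CHAF1B and ASF1B, which act at the replication fork, differed by 0.41, 0.80 and 0.74, each with MBD2 array 1 0.90, 1.39 and 2.03 log2 units below MBD2 arrays 2 and 3. Between groups, 0 of 21 S phase genes (median 0.39), 0 of 22 mitosis genes (median 0.90, with CCNB1, the mitotic cyclin, at 0.12) and 0 of 12 quiescence genes (median -0.15) were called.

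Without the 2 arrays that stood apart, control array 3 and MBD2 array 1, limma called 5 histone genes higher (H1-10, H1-2, H2BC4, H2BC6 and H2BC12) and 1 lower (H3C6). That is 11.1% and 2.22% of the members, against 16.7% and 10.7% of all genes, and the fit rests on 2 pairs of nearly identical arrays. The differences were 1.91, 1.80, 1.83, 0.88 and 0.94 for the 5 and -1.12 for H3C6. On the same arrays 59 of 99 genes of the related lists were called higher and 5 lower. By the rule of the study's methods, more than 1.5-fold in each MBD2 array or under 0.5-fold in each, 2 members passed as higher, H2BC4 and H1-2, and 0 as lower. Over all genes 687 (3.47%) and 357 (1.81%) passed.

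A further 20 probe sets carry the symbols of several cluster histone genes at once, and 19 more histone genes are named by such probe sets alone. They were not tested, and no single gene can be read from them. A probe set shared by 14 H4 genes read 10.64, 10.56 and 11.004 on the control arrays and 9.59, 11.55 and 11.27 on the MBD2 arrays, with MBD2 array 1 the lowest. One shared by 10 H3 genes read 7.09, 7.38 and 8.90 and then 8.59, 7.39 and 7.36, with control array 3 and MBD2 array 1 the highest. One shared by H2BC11 and H2BC8 had the same 2 arrays highest (6.56, 6.81 and 7.85, then 7.38, 6.11 and 6.43), and one shared by 6 H2A genes was high on MBD2 arrays 2 and 3 (4.73, 4.56 and 5.14, then 4.68, 6.15 and 6.22). In 0 of the 20 were all MBD2 arrays above all control arrays, and in 1 they were below. The shared probe sets thus followed several array patterns, as the single genes did.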

How the data were processed

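The authors deposited log2 values of every probe set, made with RMA. The processing notes of the submitters list RMA and affy, with versions not given in the sources used here. The values ran from 2.57 to 14.74 with a median of 5.24 on each array. Precision is limited by having 3 arrays a group. Probe sets were named through the platform annotation and RefSeq (41091 with 1 symbol, 1801 with several, 11721 with none, 62 controls), and all 45 members matched RefSeq. Groups came from the labels. The comparison used limma 3.58.1 under R 4.3.3, a linear model of group alone with eBayes moderation, Benjamini-Hochberg adjustment over 19775 genes and no filter on dim probe sets, and was tested on simulated data. The members and lists were chosen with earlier results of these data known. Genes were named by rule: called members, the 12 largest increases and 12 largest decreases, the 10 highest means, members known for polyadenylated transcripts, called genes of the related lists, and further genes fixed by name (H3-3B and the H2A genes HIST2H2AA3 and HIST2H2AA4 had no probe set with 1 symbol). PTPRC, GATA3, H2BC8, second and shared probe sets and the other members named were chosen after their values were seen. Alternatives changed the probe set kept, the probe sets with shared sequence, the filter on dim genes, the scaling, the moderation, the arrays averaged or left out, the hybridization level as a block, a replicate block and the threshold. Proteins were not analysed here.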

Additional observations from a re-analysis of the deposited data

How the results depend on the processing

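With 3 arrays a group and 2 nearly identical pairs, calls turned on which arrays entered. Without control array 3 and MBD2 array 1, 5 histone genes were called higher and 1 lower, and of the related lists 59 higher and 5 lower. Leaving out 1 array at a time gave 0 to 1 histone genes higher and 0 to 1 lower, and 0 to 31 related genes higher and 0 to 3 lower, the highest counts without MBD2 array 1 (1 histone gene was higher without control array 3 too), where the share of all genes called also rose, to 9.62% higher and 5.68% lower (0.0101% and 0.086% at the lowest, without control array 2). Centring on housekeeping genes gave 1 histone gene higher, and the methods' fold rule 2. For the related lists 0 genes were lower, against 1, with the housekeeping centring, the mean of all probe sets, averaged arrays, no shared-sequence probe sets, trend and robust moderation, the fold rule and the replicate block. Deviations of same-numbered arrays from their group means had correlations of 0.17, -0.27 and 0.21. Control array 3 and MBD2 array 1 stood apart from their groups, so these correlations cannot show whether equal numbers mark pairs. With the replicate block 0 histone genes were called in either direction, and 0.0607% and 0.258% of all genes were called higher and lower. The histone median was -0.067 with the hybridization level as a block, against -0.07 for all genes, a fit that compares MBD2 array 1 with the controls. Without shared-sequence probe sets 3 histone genes were 2-fold higher on control array 3 and 2 on MBD2 array 1, of 35, against 3.28% and 5.47% of all genes.

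Among named genes, signs turned as follows, and the cause was not tested. Without control array 3 and MBD2 array 1, H1-6 was at -0.012, H2AC14 at 0.17, H2AC16 at 0.049, H2AC25 at 0.029, H2AC6 at -0.0081 and H4C8 at -0.057. The mean of all probe sets gave 0.021 for H2AC25 and -0.0036 for H2BC5, averaged arrays -0.16 for H2BC5, the hybridization block 0.21 for H3C6 and no shared-sequence probe sets 0.14 for CPSF2. With 1 array left out, differences ran from -0.30 to 0.084 for H2AC14, -0.35 to 0.011 for H2AC25, -0.31 to 0.64 for H2AC6, -0.007 to 0.87 for H2BC12, -0.12 to 1.11 for H2BC21, -0.23 to 0.62 for H2BC5 and -0.44 to 0.54 for H4C8.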
